A study of Rattus norvegicus with 8 samples.

Results

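Nefl, Nefm and Nefh encode the light, medium and heavy subunits of the neurofilament, the main intermediate filament of large axons. They were taken as the 3 rows with the Ensembl identifiers ENSRNOG00000013658 (Nefl), ENSRNOG00000013916 (Nefm) and ENSRNOG00000008716 (Nefh) out of 32883 rows of a table of UMI counts. A UMI, or unique molecular identifier, is a short random tag that lets the PCR copies of 1 captured RNA molecule be counted once. The rule uses their identity and no measured value, although they were proposed as a group with earlier results of these data known. The libraries were made from lower spinal cords of rats of the outbred Sprague Dawley strain, collected 23 days after a hemisection, an injury that cuts across one side of the cord. The series' design text places it at T9 and calls the sampled cord below it intact. All animals carried the injury; 4 libraries came from rats with training afterwards (trained) and 4 from rats without it (untrained), and no uninjured group was compared here. The sources used here do not give the kind of training, the age and sex of the rats or the number of animals per library, so p-values measure the spread between libraries, which may be technical.

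Neurofilaments are built from a core of light chains into which the medium and heavy chains are co-assembled. The long tails of the medium and heavy chains project sideways from the filament, are heavily phosphorylated in axons and help to set axon calibre. In the spinal cord the genes are strongly expressed in motor neurons and other neurons with large axons, and their RNA lies mostly in the cell bodies. Neurons in the brain whose axons run down the cord, and sensory neurons of the dorsal root ganglia, keep their cell bodies outside the dissected tissue. In bulk tissue, fewer cells of a type and less RNA per cell cannot be told apart.

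The 8 libraries held 192472 to 453390 UMIs, with 8727 to 10623 genes detected in each. Trained replicates 2, 3 and 4 were the shallowest, at 216786, 192472 and 212328 UMIs. Trained replicate 1 held 400934 UMIs, and untrained replicates 1 to 4 held 384167, 365523, 240895 and 453390 UMIs. Depth thus went in part with training, and its part in the comparison of the groups was not tested. The deposited table names genes by identifier alone, and the RefSeq gene table used here (assembly GRCr8) holds 0 Ensembl identifiers, so no identifier could be looked up in it. Symbols of the members came with their identifiers. Lists of other neuronal filament genes, filament partners, axonal cytoskeleton, filament kinases and cell type markers, all written as symbols, could therefore not be read from the table, and the labelled tissue could not be checked against its defining markers. In the GRCr8 annotation Nefl and Nefm are near neighbours on one chromosome, with 1 other annotated gene between them, and Nefh lies on another. The span of Nefm overlaps that of 1 other gene there; whether the authors' annotation has that gene, and whether counting used strand, was not tested. The 3 genes had 0 entries in the RefSeq promoter table.

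All 3 subunits were well measured. Nefl, the light chain on which filament assembly depends, had 4185 UMIs over the 8 libraries and ranked 66th by total count among the 13048 genes with a UMI. Nefh, the heavy chain, had 2061 UMIs (rank 159) and Nefm, the medium chain, 1851 UMIs (rank 187). All 3 passed the filter on low counts that left 4086 genes for testing. The smallest count of a member in any library was 100 UMIs (Nefm in trained replicate 2), for which the counting error alone is 10%, and the largest was 859 UMIs (Nefl in untrained replicate 1), with 3.41%. Each library's share of neurofilament RNA was small, between 0.230% and 0.440% of all UMIs for the 3 genes together.

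No difference in Nefl between trained and untrained cords was detected. Its levels in untrained replicates 1 to 4 were 2249, 1189, 1947 and 1872 CPM, where CPM (counts per 1000000) is the count relative to the scaled library total. In trained replicates 1 to 4 they were 1577, 1574, 2586 and 1614 CPM. The lowest and the highest library thus came from different groups, untrained replicate 2 and trained replicate 3, and the groups overlapped. The group means were 1814 ± 448 CPM untrained and 1838 ± 499 CPM trained (SD, n = 4 each). Trained minus untrained came to 0.016 ± 0.24 on the log2 scale (SE, edgeR quasi-likelihood test, adjusted p = 0.99998), with a 95% interval from 0.71-fold to 1.43-fold.

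Nefm, whose tail carries part of the sidearm of the filament, gave the same picture at a lower level. Untrained replicates 1 to 4 stood at 822, 515, 886 and 1043 CPM, and trained replicates 1 to 4 at 555, 515, 1201 and 984 CPM. Both libraries numbered 2 were at the bottom of their groups, and trained replicate 3 was again the highest of the 8. The means were 817 ± 222 CPM untrained and 814 ± 334 CPM trained (SD, n = 4 each). Trained minus untrained came to -0.016 ± 0.28 on the log2 scale (SE; edgeR adjusted p = 0.99998), with a 95% interval from 0.66-fold to 1.48-fold.

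Nefh, the subunit with the longest and most phosphorylated tail, had 809, 686, 900 and 1223 CPM in untrained replicates 1 to 4. In trained replicates 1 to 4 it had 512, 798, 1397 and 990 CPM. The trained libraries held both the lowest and the highest value, so that the untrained range lay inside the trained one. The means were 904 ± 230 CPM untrained and 924 ± 371 CPM trained (SD, n = 4 each). The difference on the log2 scale was 0.018 ± 0.27 (SE; edgeR adjusted p = 0.99998), with a 95% interval from 0.68-fold to 1.5-fold.

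**Figure D1:**
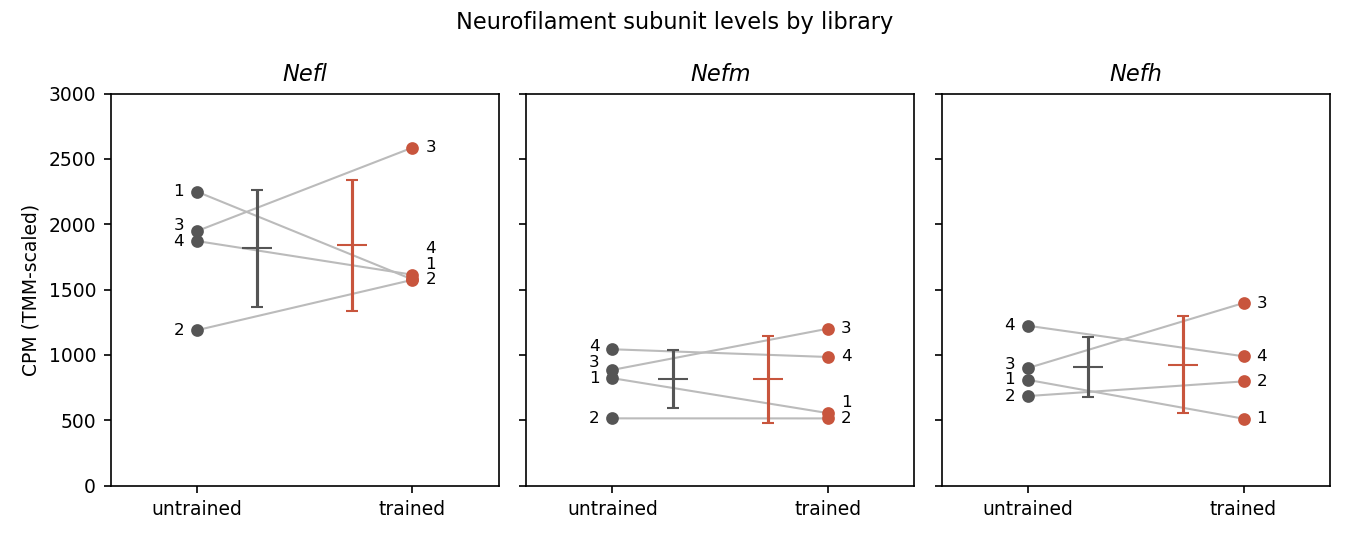
Level of Nefl, Nefm and Nefh in each library (vertical axis, CPM on TMM-scaled library sizes, linear from 0). Points are single libraries with their replicate number, grey lines join libraries of the same number, and bars give the mean ± SD of 4 libraries; the groups overlap for all 3 genes, and trained replicate 3 is the highest library in each panel.

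Across all genes, 0 of 4086 passed the test of training in this fit (0% called), the 3 members included. The smallest adjusted p of any gene was 0.99998, so the value printed for the members does not set them apart from other genes. Their unadjusted p in this edgeR test was 0.947 (Nefl), 0.955 (Nefm) and 0.949 (Nefh). At an unadjusted p under 0.05 there were 52 genes (1.27%), of which 0 were members. That is a smaller share than the 0.05 that chance gives on average, in a fit that leaves out the number. The median log2 fold change of the 3 members was 0.016, beside 0.010 over the 4086 genes. None of the 3 had groups that did not overlap, which 0.489% of genes did with trained libraries higher and 0.612% with trained libraries lower. The 95% intervals are for single genes and are not adjusted over the genes tested; in this fit all 3 excluded a 2-fold change in either direction.

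The titles give the libraries of each group the numbers 1 to 4, and same-numbered libraries deviated together from their group means, so the groups were also compared within numbers. With the number as a block the intervals narrowed and the estimates stayed near 0. For Nefl trained minus untrained was 0.012 ± 0.16 on the log2 scale (SE; edgeR adjusted p = 0.9995), with an interval from 0.80-fold to 1.26-fold. That of Nefm was -0.065 ± 0.14 (edgeR adjusted p = 0.994; interval 0.78-fold to 1.18-fold), and that of Nefh was -0.041 ± 0.16 (edgeR adjusted p = 0.9995; interval 0.77-fold to 1.23-fold). Of all genes, 2 passed in the blocked fit (0.0489% called) and 171 had an unadjusted p under 0.05 (4.19%); none of these was a member. The direction of Nefh was thus opposite with and without the block, on estimates far inside their error.

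Behind these averages lay differences of opposite sign that the 3 genes shared. In the pair numbered 1 the trained library was lower for all 3, by 0.51 (Nefl), 0.56 (Nefm) and 0.65 (Nefh) on the log2 CPM scale. In the pair numbered 3 the trained library was higher for all 3, by 0.41, 0.44 and 0.63. In the pair numbered 4 the trained library was again lower, with differences of -0.21, -0.083 and -0.30. In the pair numbered 2 the differences were 0.40 for Nefl, -0.0012 for Nefm and 0.22 for Nefh. No member moved one way in all 4 pairs, which 5.70% of genes did upwards and 6.29% downwards. The 3 genes of a pair share their libraries and their scaling, so these are not 3 independent observations. The pattern was also present in the unscaled shares: the 3 genes together took 0.386% of the UMIs in untrained and 0.263% in trained replicate 1, against 0.325% and 0.440% in replicate 3.

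**Figure D2:**
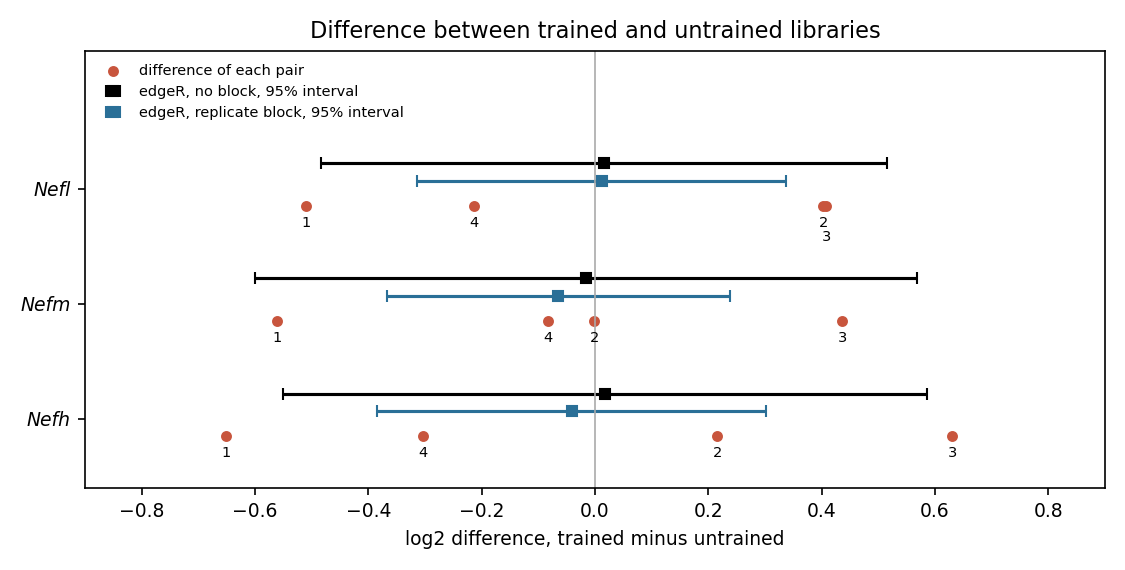
Difference between trained and untrained libraries on the log2 scale for each subunit (horizontal axis; 0 is no difference). Squares and bars are edgeR estimates with 95% intervals without and with the replicate number as a block, and points are the differences of single pairs, labelled by replicate number; all 6 intervals include 0, while pair 1 lies to the left and pair 3 to the right of 0 for every gene.

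Summed over the subunits, the mean level was 3535 ± 782 CPM without and 3576 ± 1144 CPM with training (SD, n = 4 each). The untrained libraries ran from 2390 to 4138 CPM and the trained ones from 2645 to 5184 CPM. The difference between the group means of the log2 values was -0.0032, opposite in sign to that of the CPM means and near 0 on both scales; it is given as a description with no test.

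The subunits were correlated with each other across libraries, and whether the 3 correlations differ was not tested. The highest value was that of Nefh and Nefm, with Pearson's r = 0.86 over the 8 libraries (exact permutation test over pairings, p = 0.00432, adjusted p = 0.0129). Their Spearman's rho was 0.90 (exact permutation p = 0.00456, adjusted p = 0.0137). Without the 2 libraries farthest from the median of Nefh (trained replicates 1 and 3), r was 0.84. Nefm and Nefl had r = 0.76 (exact permutation p = 0.0283, adjusted p = 0.0425) and rho = 0.76 (exact permutation p = 0.0368, adjusted p = 0.0551). Without both libraries numbered 2, r fell to 0.58, so this relation rests in part on those samples. Nefh and Nefl had r = 0.63 (exact permutation p = 0.0898, adjusted p = 0.0898) and rho = 0.71 (exact permutation p = 0.0576, adjusted p = 0.0576), and r = 0.46 without trained replicates 1 and 3. Adjustment was over the 3 gene pairs. The values compared in a library share its scaling, and same-numbered libraries deviated together, so the 8 libraries are not fully independent.

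The ratios of the subunits within a library do not depend on the scaling of library totals. UMIs are meant to count each captured molecule once at its 3′ end, so these counts were not divided by gene length. They are ratios of UMIs, and genes may differ in how well they are captured. UMI collisions would lower the highest counts most, and the ratios given are not corrected for them. Corrected on the assumption of a 6-base UMI, Nefm to Nefl in untrained replicate 1 was 0.339, beside 0.366 uncorrected. Nefl was the most abundant subunit in 8 of 8 libraries. Pooled over the libraries, the 8097 neurofilament UMIs were 51.7% Nefl, 25.5% Nefh and 22.9% Nefm. Nefh exceeded Nefm in 6 of 8 libraries, but the 95% counting interval of their ratio excluded equality in only 3 of them. The mean log2 ratio of Nefh to Nefm was 0.16 ± 0.20 without and 0.19 ± 0.33 with training (SD over 4 libraries each), in both groups smaller than the SD between libraries; it was not tested against 0.

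No difference in the ratios with training was detected. Nefm to Nefl was 0.366, 0.433, 0.455 and 0.558 UMIs per UMI in untrained replicates 1 to 4, and 0.352, 0.327, 0.464 and 0.61 in trained replicates 1 to 4. The groups overlapped, and the trained libraries held both the lowest and the highest value. The difference of trained minus untrained was -0.075 ± 0.24 on the log2 scale (SE; two-sided exact permutation test over 70 assignments, p = 0.771, adjusted p = 0.943). Compared within numbers it was -0.075 ± 0.12 (SE of 4 pair differences; two-sided exact sign-flip permutation test, p = 0.75, adjusted p = 1.0).

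Nefh to Nefl was 0.360, 0.577, 0.462 and 0.654 in untrained replicates 1 to 4, and 0.325, 0.507, 0.540 and 0.613 in trained replicates 1 to 4. The lowest value of each group was in the library numbered 1 and the highest in that numbered 4. The difference was -0.050 ± 0.27 (SE; two-sided exact permutation p = 0.829, adjusted p = 0.943), and within numbers -0.050 ± 0.094 (exact sign-flip permutation p = 0.625, adjusted p = 1.0). Nefh to Nefm was 0.984, 1.33, 1.02 and 1.17 in untrained and 0.923, 1.55, 1.16 and 1.01 in trained replicates 1 to 4, with the highest value of each group in the library numbered 2. Its difference was 0.025 ± 0.19 (SE; two-sided exact permutation p = 0.943, adjusted p = 0.943), and within numbers 0.025 ± 0.11 (exact sign-flip permutation p = 1.0, adjusted p = 1.0). The smallest p these designs can give is 0.0286 over 70 assignments and 0.125 over the 16 sign flips, so the comparison within numbers could not have passed a threshold of 0.05.

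**Figure D3:**
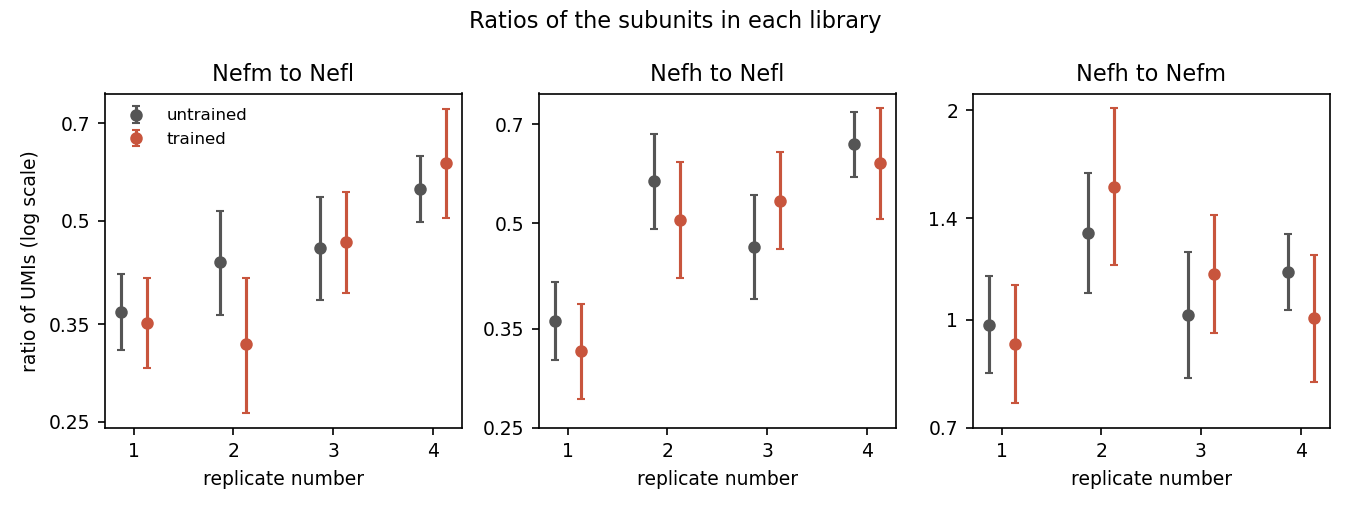
Ratios of UMI counts of the subunits in each library (vertical axis, log scale) against replicate number, with exact 95% binomial counting intervals as bars. The intervals of the untrained and trained library of a number overlap in every case, the widest gap being Nefm to Nefl in the libraries numbered 2 (0.433 and 0.327), while Nefh to Nefl runs from 0.325 and 0.360 in the libraries numbered 1 to 0.613 and 0.654 in those numbered 4.

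The ratios went with the replicate number. Between same-numbered libraries, which differ in training, none of the 12 differences of log2 ratios exceeded 1.96 times its counting error (the 95% limit) (the largest was 1.93 times, for Nefm to Nefl in the pair numbered 2). The third ratio of a library follows from the other two, so the 12 are not independent. A chi-square of the 3 subunits' counts between the libraries of a number, summed over the 4 numbers, came to 1.03 times its degrees of freedom, the value that sampling of molecules alone would give being 1. It was 0.49, 1.97, 0.88 and 0.80 in the pairs numbered 1 to 4. Between the 4 numbers, with both libraries summed, it was 17.9 times its degrees of freedom. These chi-squares compare libraries, not conditions, and are given as a description. Over the whole table (genes with 20 UMIs or more in both libraries together), same-numbered libraries differed by 2.23 to 3.16 times the degrees of freedom, and libraries of different numbers by 2.83 to 5.61 times within a group and 2.64 to 5.86 times across groups. Where libraries differ, this measure grows with the counts per gene. The value of 17.9 used summed libraries and abundant genes, so it cannot be set against those of the whole table or directly against 1.03.

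The share of each subunit in the neurofilament UMIs shows how the numbers differed. Nefl was highest in the libraries numbered 1 and lowest in those numbered 4. It made up 58.0% (exact binomial 95% interval 55.4% to 60.5%, which covers counting error only) of neurofilament UMIs in untrained replicate 1 and 59.6% (56.6% to 62.6%) in trained replicate 1. In the libraries numbered 4 it made up 45.2% (42.9% to 47.5%) untrained and 45.0% (41.2% to 48.8%) trained. The libraries numbered 2 and 3 lay between these, at 49.8% to 54.5%. Nefh accounted for 20.9% and 19.4% in the libraries numbered 1 and for 24.1% to 29.6% in the other 6. Nefm accounted for 21.2% and 21.0% in the libraries numbered 1, 21.5% and 17.8% in those numbered 2, 23.7% and 23.2% in those numbered 3, and 25.2% and 27.4% in those numbered 4 (untrained first). Of the 3 deepest libraries, untrained replicate 4 (453390 UMIs) had the highest ratio of Nefh to Nefl of the 8, and trained replicate 1 (400934 UMIs) and untrained replicate 1 (384167 UMIs) had the lowest. The part of depth in the ratios was not tested.

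Of the sum of squares of the log2 ratios over the 8 libraries, the number accounted for 86.9% (Nefm to Nefl), 93.7% (Nefh to Nefl) and 83.9% (Nefh to Nefm), and training for 1.60%, 0.55% and 0.28%. Of the log2 CPM of the genes themselves, the number accounted for 62.2% in Nefl, 84.4% in Nefm and 66.8% in Nefh, beside a median of 62.3% over the 4086 genes. Training accounted for 0.11%, 0.33% and 0.10%, beside a median of 4.83%. The number has 4 levels and training 2, so the number takes the larger part on average even without an effect. Ratios of other genes were not computed, so the parts of the ratios have no such background. In an edgeR test of the 4 numbers with training in the model, chosen after the values had been seen, Nefm (F = 10.7, adjusted p = 0.00487) and Nefh (F = 6.22, adjusted p = 0.0321) passed the threshold and Nefl did not (F = 3.63, adjusted p = 0.122). Of all genes, 654 passed (16.0% called). The mean CPM of the 2 libraries of a number was 689, 515, 1043 and 1014 for Nefm and 661, 742, 1148 and 1107 for Nefh in numbers 1 to 4. Both had their higher means in the libraries numbered 3 and 4, while Nefl stood at 1913, 1382, 2267 and 1743 CPM. The call of Nefm was lost without both libraries numbered 2 (edgeR adjusted p = 0.105), and that of Nefh without those numbered 1 (0.0841) or 2 (0.0523). What a number stands for is not in the labels. Each number covers 1 untrained and 1 trained library, which came from different rats. The titles of all 8 libraries share the tag L2, so that tag does not set the numbers apart. Whether a number marks a day, a difference in dissection or a preparation was not tested.

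**Figure D4:**
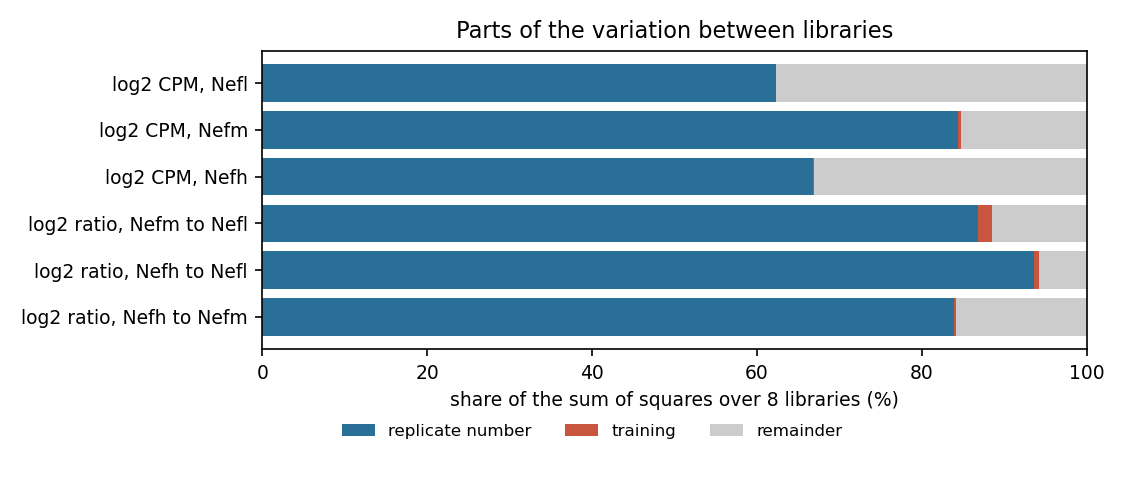
Share of the sum of squares over the 8 libraries (horizontal axis, %) that goes with replicate number, with training and with the remainder, for the log2 CPM of each subunit and for each log2 ratio. The part for training is at most 1.60%, and the part for the number is 83.9% or more for the ratios. The number has more levels than training and so takes the larger part on average even without an effect.

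The gene whose level was most like the mean log2 CPM of the 3 subunits over the 8 libraries, out of 1168 genes with a mean of at least 50 UMIs, was ENSRNOG00000016145 (Pearson's r = 0.95). It ran from 270 to 357 CPM, a narrower range than that of any subunit. The next was ENSRNOG00000036833 (r = 0.94), with 125 CPM in untrained replicate 2 and 362 CPM in trained replicate 3, the same lowest and highest library as Nefl. In all, 10 of the 1168 genes had r above 0.9. These are descriptions picked as the highest of many, and the files do not pair the identifiers with names. Neither gene passed the test of training (log2 fold changes of -0.030 and 0.13, edgeR adjusted p = 0.99998 for both).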

How the data were processed

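RNA from the lower spinal cord was made into CEL-Seq2 libraries, which tag the 3′ end of each captured molecule, and sequenced on an Illumina HiSeq1500, per the labels' protocols. The submitters' processing notes name HISAT2 2.0.4, HTSeq 0.6.0 and the build Rnor_6.0. The authors deposited one table of raw UMI counts per Ensembl gene, 1 column per library, without normalisation; the sources used here do not give UMI length or collapsing.

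From these counts, filterByExpr in edgeR 4.0.16 (R 4.3.3; at least 10 counts in a library of median size, in 4 libraries) kept 4086 genes, and TMM factors scaled the totals. Training was tested with edgeR's quasi-likelihood test of 4 trained against 4 untrained libraries, adjusted by Benjamini-Hochberg over all genes (threshold 0.05). SEs of the edgeR estimates are the absolute log2 fold change over the square root of F. Log2 CPM used a prior count of 2. Ratios were tested by exact permutation. The fits and tests were checked on simulated data.

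Replicate numbers come from the titles. Deviations from the group means correlated at 0.30 to 0.53 in the 4 same-numbered pairs across 4086 genes, above 0.1 in each, so the groups were also compared within numbers. The main tests did not use the number.

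The genes named were the 3 members and the 2 genes most correlated with their mean. Members, lists and tests were chosen with earlier results of these data known. Alternatives were other scalings, filters and tools (DESeq2 1.42.0, limma 3.58.1), left-out libraries, the replicate block, and counts corrected for UMI collisions on the assumption of a 6-base UMI (4096 sequences).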

Additional observations from a re-analysis of the deposited data

Results flagged for a closer look

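The 3 levels, their sum and the 3 ratios were searched in each group for a library set apart from the other 3; 1 of these 14 searches found one, and chance gives about 1 in 20. Nefl in trained replicate 3, at 2586 CPM, lay apart from the other 3 trained libraries, at 1574 to 1614 CPM; its distance to the next library was 0.961 of the group's range (limit 0.829). This library was the shallowest of the 8 (192472 UMIs), and Nefm and Nefh were at their highest there too. Without it the log2 fold change of Nefl was -0.20, that of Nefm -0.27 and that of Nefh -0.26, none of them past the threshold.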

How the results depend on the processing

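Under none of the 25 alternatives did a subunit pass the test of training (edgeR, DESeq2 or limma-voom adjusted p of 0.952 or more), but the sign of these near-zero estimates changed often; the cause was not tested. Nefl turned to -0.00048 with upper-quartile scaling, -0.085 with plain totals, -0.026 with no filter, -0.0065 with 5 CPM in 4 libraries, -0.028 on collision-corrected counts (-0.026 with the replicate block) and -0.13 in numbers 1 and 2 alone. Nefm turned to 0.17 in numbers 3 and 4 alone. With plain totals, which leave out the TMM factors, Nefl, Nefm and Nefh stood at -0.085, -0.13 and -0.10. Nefh turned to -0.041 with the replicate block (-0.038 in DESeq2 with it), -0.10 with plain totals, -0.033 in limma-voom, -0.029 with no filter, -0.0054 with 5 CPM in 4 libraries, -0.0014 on corrected counts (-0.059 with the block) and -0.21 in numbers 1 and 2 alone. With 1 library left out, Nefl ran from -0.20 to 0.14, Nefm from -0.27 to 0.14 and Nefh from -0.26 to 0.23; with the block and both libraries of 1 number left out they ran from -0.13 to 0.197, -0.24 to 0.12 and -0.27 to 0.17. The log2 ratio differences ran from -0.25 to 0.051 (Nefm to Nefl), -0.21 to 0.14 (Nefh to Nefl) and -0.12 to 0.13 (Nefh to Nefm) with 1 library left out, and that of the sum from -0.20 to 0.12.

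The count of genes past the test of training was 0, and it was 2 with the replicate block, 6 with no filter and 1 with the block on corrected counts; with the block and 1 number left out it was 0 to 5. The count for the replicate number was 299 to 611 with 1 number left out, with fewer libraries to compare, and Nefl passed that test with no filter (edgeR adjusted p = 0.0330). The collision correction raised the highest count of Nefl by 12.2%, of Nefh by 7.44% and of Nefm by 6.17%. On corrected counts the log2 ratios, trained minus untrained, were -0.052 (Nefm to Nefl), -0.031 (Nefh to Nefl) and 0.022 (Nefh to Nefm). Splits by number were chosen after seeing the data.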
